A study of Drosophila melanogaster with 8 samples.

Results

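The genes described here encode the subunits of the Drosophila melanogaster proteasome. They were found by name, as genes whose FlyBase symbol begins with Prosalpha, Prosbeta, Rpn or Rpt followed by a number, and 47 of the 15348 genes in the count table matched. Of these, 35 had at least 1 CPM (counts scaled to a library total of 1000000) in at least 1 library, among 10032 genes that did. The 35 were 31 core subunit genes, the near-identical pair Prosalpha1 and Prosalpha1R, and the paralogs Rpt3R and Rpt6R, and the remaining 12 were paralogs under 1 CPM in every library. The choice used names and a low floor of abundance, and no difference between libraries.

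RNA was sequenced from imaginal discs, the larval epithelia that form adult structures, of third-instar larvae collected at the wandering stage. Each of the 8 groups was a single library made from the pooled discs of 50 to 60 larvae raised at 25 °C, 7 of eye-antennal discs and 1 of wing discs. All 7 eye-antennal groups, the control included, carried y, w and the eyflp recombinase source with the act>y+>Gal4 driver, UAS-GFP and a pair of FRT82 chromosomes, of which the first bore e and tub-GAL80. FLP made under eyeless control exchanges the FRT82 arms in some cells of the disc, so these discs were mosaics of clones without GAL80, in which Gal4 acts, and neighbouring cells. The control had no further transgene and was collected 5 days after egg laying. The RasV12 group added UAS-Ras[V12], an always-active form of the GTPase Ras, and was also taken at 5 days. The BskDN group added UAS-Bsk[DN], a dominant-negative form of the Jun N-terminal kinase (JNK) Basket, and was taken at 11 days. The scrib BskDN group (6 days) had the same transgene and a mutant scrib allele on the second FRT82 chromosome. The RasV12 scrib groups, of 7 and 11 days and called the 7-day and 11-day libraries or tumours, joined UAS-Ras[V12] with that allele, the combination used as a malignant tumour model, and the RasV12 scrib BskDN group (6 days) added UAS-Bsk[DN] to it. The scrib wing discs (6 days) came from w/+ larvae that carried scrib[2] over scrib[1] in all cells, without clones and without a wing control. Age therefore differed between most groups compared, and its part cannot be told apart from that of the genotype.

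The proteasome is the protease that removes proteins tagged with ubiquitin. Its core particle, called 20S, is a stack of rings: the outer alpha rings gate the entry, and the inner beta rings hold the proteolytic sites, which face a closed chamber. The regulatory particle, called 19S, has a base, with a ring of Rpt ATPases that unfolds the substrate, and a lid, which takes ubiquitin off. The subunits are needed in fixed proportions, and in flies, as in mammals, proteasome genes are known to be raised together by a Cap'n'collar transcription factor (CncC, the fly relative of Nrf1 and Nrf2) when the protease is blocked.

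Between 17152279 and 21027972 counts were assigned to genes per library, and levels are given as CPM after normalization with edgeR's TMM factors. Intervals are exact 95% intervals that cover counting error only. With 1 library per group there was no spread between replicates, no test was made and no p-value is given. A gene is counted as higher or lower when the fold between 2 libraries passed 1.5-fold, with smaller differences counted where they passed 25% upward or 20% downward, the same ratio. The share of all 10032 genes past the same fold stands beside each first count. In bulk RNA, fewer cells of a type and less RNA per cell cannot be told apart. The control library stood apart in markers of other tissues. The 7 larval cuticle genes summed to 4078 CPM there and to between 3.58 and 376 CPM in the other libraries. The 6 muscle genes measured of 8 summed to 5056 CPM against 776 to 1827 CPM. The 8 hemocyte genes measured of 9 summed to 2236 CPM against 459 to 1389 CPM, mostly from PPO2, Hml and Pxn, while srp, crq and NimC1 were higher in BskDN than in control. The 7 fat body genes summed highest in BskDN, to 5465 CPM against 59.5 to 1335 CPM elsewhere, mostly from Fbp1 (3601 CPM) and Lsp2 (1145 CPM), whereas Lsp1alpha, Lsp1beta and Lsp1gamma were highest in RasV12. The salivary glue genes were highest in RasV12, at 1388 CPM, and then scrib BskDN, at 823 CPM, against 10 to 44.5 CPM elsewhere. None of these markers was at 0 in any library, and their part in the differences below was not tested. The library labelled as wing discs had the lowest summed eye disc markers, 181 CPM against 388 to 1165 CPM, but its wing genes were no higher than in the eye-antennal libraries. There vg was at 2.25 CPM and nub at 3.75 CPM, against 1.49 to 3.83 CPM and 3.56 to 7.68 CPM. Its values are given as levels, and 26 of the 31 core genes were above control there, where 47.7% of all genes were. Of the 35 members, 2 were at least 25% above control with a counting interval above equality, where 14.9% of all genes were.

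All 31 core genes were expressed in every library, between 108 and 506 CPM, with 2284 to 10593 counts per gene and library. Together they took 0.592 to 0.80% of a library's counts. The 6 genes of the alpha ring are Prosalpha2 to Prosalpha7, the 7 of the beta ring Prosbeta1 to Prosbeta7, and the base is represented by 10 genes (Rpt1 to Rpt6, Rpn1, Rpn2, Rpn10 and Rpn13) and the lid by 8 (Rpn3, Rpn5 to Rpn9, Rpn11 and Rpn12). Per kilobase of exon, the mean level over the 8 libraries was 189 to 247 CPM for alpha ring genes and 178 to 246 CPM for beta ring genes. It was 100.4 to 174 CPM for genes of the base and 119 to 178 CPM for genes of the lid. On this scale all ring genes but Prosbeta3 lay above all genes of the regulatory particle, and Prosbeta3 and Rpn12 had the same rounded value of 178 CPM. The core genes are spread over the genome in the BDGP6 annotation, with 4 on 2L, 9 on 2R, 5 on 3L, 9 on 3R and 4 on X. Rpn9 and Rpt5 on 3R lie 19413 bases apart, and Rpn12 and Prosbeta6 on 3L 25377 bases apart. In 12 of the 31, between 0.0615 and 15.7% of the exon bases are shared with a gene on the opposite strand. The sources used here do not give the strand setting of the counting, so reads of such partners cannot be told apart.

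**Figure D1:**
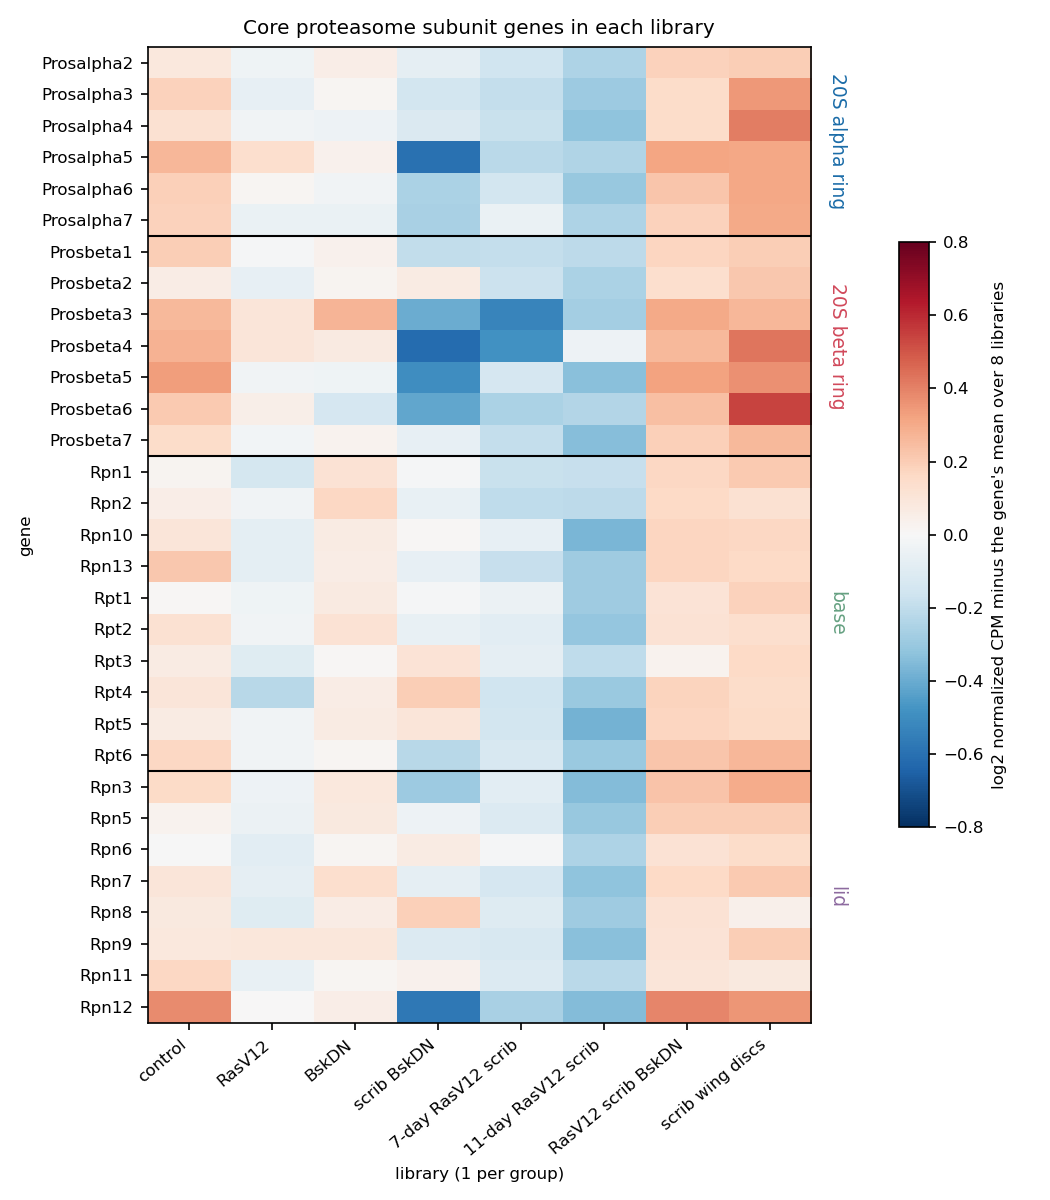
Level of each of the 31 core genes (vertical axis, grouped by ring, base and lid) in each of the 8 libraries (horizontal axis), as log2 normalized CPM minus the gene's mean over the libraries. Most genes are bluest in the 11-day RasV12 scrib library, where 24 of the 31 have their lowest eye-antennal level, and Prosalpha5, Prosbeta4, Prosbeta5 and Rpn12 are bluest in scrib BskDN. The share of all genes lowest in each library was not computed.

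The catalytic beta subunits differed in how far they moved. Prosbeta5, which carries the chymotrypsin-like site (FBgn0029134, 2R:10819978-10821178), was at 346 CPM in control, 269 in RasV12, 249.7 in the 7-day library, 217 in the 11-day library, 194 in scrib BskDN, 268 in BskDN, 343 in RasV12 scrib BskDN and 353 CPM in the wing discs. It was thus near its highest in control, RasV12 scrib BskDN and the wing discs and lowest in scrib BskDN, 1.79-fold under control (1.72 to 1.86). Prosbeta1, which carries the caspase-like site (FBgn0010590, 2R:16013805-16014787), was at 178 CPM in control, 154 in RasV12, 136 in the 7-day library, 134 in the 11-day library, 135 in scrib BskDN, 159 in BskDN, 175 in RasV12 scrib BskDN and 178 CPM in the wing discs. The 3 low libraries of Prosbeta1 were the same as for Prosbeta5, within a narrower band of 1.33-fold from highest to lowest among the eye-antennal libraries. For Prosbeta2, which carries the trypsin-like site (FBgn0023174, 3L:14999951-15001319), the levels were 207 CPM in control, 189.8 in RasV12, 177 in the 7-day library, 167 in the 11-day library, 208 in scrib BskDN, 202 in BskDN, 218 in RasV12 scrib BskDN and 231 CPM in the wing discs. Unlike the other catalytic genes, it was as high in scrib BskDN as in control, at 1.00-fold (0.961 to 1.05). Of its exon bases, 7.93% are shared with Reck on the opposite strand, and 7.11% of those of Prosbeta5 with Lsm10.

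The core genes with the largest range over the eye-antennal libraries were Rpn12, Prosalpha5 and Prosbeta4, and all 3 were lowest in scrib BskDN. Rpn12, a lid subunit that in yeast joins last when the lid is built (FBgn0028693, 3L:16583028-16584022), was at 224 CPM in control, 173 in RasV12, 144 in the 7-day library, 136 in the 11-day library, 116 in scrib BskDN, 179.5 in BskDN, 226 in RasV12 scrib BskDN and 221 CPM in the wing discs. Its highest eye-antennal level was 1.95-fold its lowest, the widest of any core gene. Prosalpha5, a structural subunit of the alpha ring (FBgn0016697, 2R:17412767-17413769), was at 210.1 CPM in control, 192 in RasV12, 151 in the 7-day library, 148 in the 11-day library, 116 in scrib BskDN, 179 in BskDN, 218 in RasV12 scrib BskDN and 217 CPM in the wing discs. Over the eye-antennal libraries its order is that of Rpn12, except that RasV12 stood above BskDN. Prosbeta4, a beta subunit without a catalytic site (FBgn0032596, 2L:16731180-16732133), was at 201 CPM in control, 177 in RasV12, 118 in the 7-day library, 161 in the 11-day library, 108 in scrib BskDN, 174 in BskDN, 198 in RasV12 scrib BskDN and 223 CPM in the wing discs. It was the core gene that differed most between the tumour ages, 1.36-fold higher at 11 than at 7 days (1.29 to 1.44).

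At the other end stood Rpt3, Rpn1 and Rpn6, which moved little. Rpt3, an ATPase of the base (FBgn0028686, X:11125101-11126785), was at 257 CPM in control, 229 in RasV12, 233 in the 7-day library, 213 in the 11-day library, 264 in scrib BskDN, 247 in BskDN, 250.2 in RasV12 scrib BskDN and 274 CPM in the wing discs, a range of 1.24-fold over the eye-antennal libraries. Rpn1, a scaffold of the base on which ubiquitin shuttles dock (FBgn0028695, 3L:19915051-19918160), was at 363 CPM in control, 324 in RasV12, 316 in the 7-day library, 315 in the 11-day library, 355 in scrib BskDN, 387 in BskDN, 401 in RasV12 scrib BskDN and 413 CPM in the wing discs. Rpn6, a scaffold of the lid that in yeast clamps lid, base and core particle together (FBgn0028689, 2R:14750166-14752910), was at 264 CPM in control, 249 in RasV12, 263 in the 7-day library, 223 in the 11-day library, 277 in scrib BskDN, 267 in BskDN, 286 in RasV12 scrib BskDN and 293 CPM in the wing discs. All 3 had their lowest level in the 11-day library, which Rpn1 shared with the 7-day library within counting error, and none of them was low in scrib BskDN. Over the 7 eye-antennal libraries, 24 of the 31 core genes were lowest in the 11-day RasV12 scrib library, 6 in scrib BskDN and 1 (Prosbeta3) in the 7-day library. The highest level was in RasV12 scrib BskDN for 19 genes, in control for 8, in scrib BskDN for 3 (Rpt3, Rpt4 and Rpn8) and in BskDN for 1 (Rpn2). Counting the wing discs, 19 of the 31 were highest there. The shares of all genes lowest or highest in each library were not computed, so these counts have no background beside them. Among genes with a mean of at least 50 CPM, 59.7% were lower in the 11-day library than in control. Against the 7-day library 68.0% were lower there, and against BskDN 61.7%.

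The levels of the core genes varied less between libraries than those of most genes, and together. The standard deviation of log2 CPM over the 8 libraries had a median of 0.183 for the core genes, from 0.117 for Rpt3 to 0.371 for Prosbeta4. The median was 0.356 over all 10032 genes, 0.229 over the 3828 genes with a mean of at least 50 CPM and 0.303 over 82 cytosolic ribosomal protein genes, another large complex. Of all genes 20.6%, and of those with a mean of at least 50 CPM 34.2%, had a smaller deviation than the core median. Across the 8 libraries, the level of a core gene and the mean of the other core genes had a Pearson correlation of 0.898 in the median gene, and 26 of the 31 were above 0.8. The lowest was 0.592, for Rpn8, the partner of the deubiquitinase Rpn11 in the lid. The same correlation with the core mean had a median of 0.138 over genes with a mean of at least 50 CPM, and their share above 0.8 was not computed. These values describe 8 libraries that share their scaling, and they carry no test. Scaled to total counts instead, the median correlation of the core genes was 0.818, and 17 were above 0.8.

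**Figure D2:**
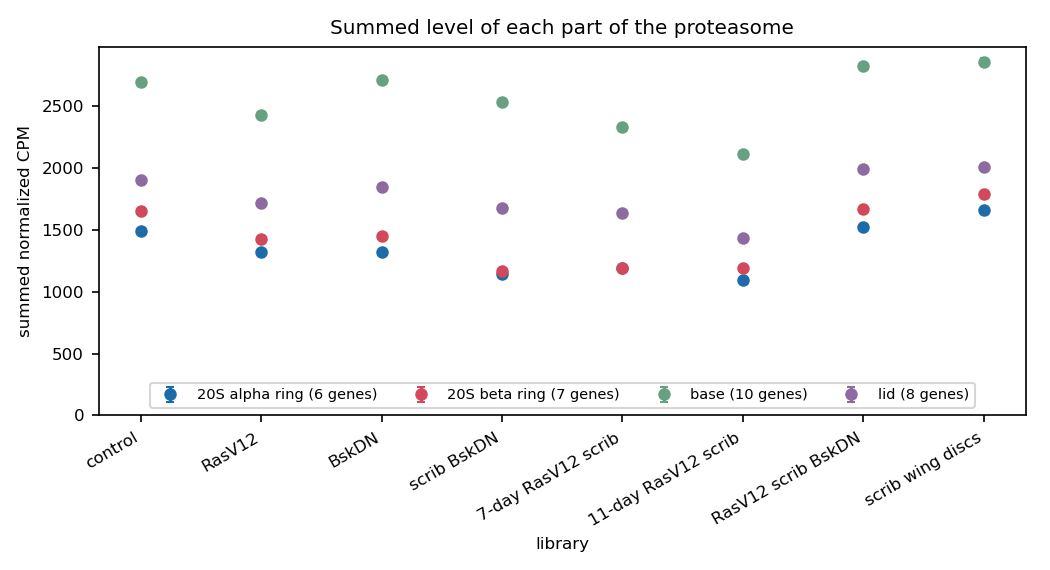
Summed normalized CPM (vertical axis, from 0) of the alpha ring, the beta ring, the base and the lid in each library (horizontal axis). Exact 95% counting intervals are narrower than the points. The 2 rings are lowest in scrib BskDN and both RasV12 scrib libraries, at 1096 to 1194 CPM, while the base stands at 2534 CPM in scrib BskDN.

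Summed by part, the 20S rings and the 19S particle did not move alike. The alpha ring summed to 1494 CPM in control, 1321 in RasV12, 1194 in the 7-day library, 1096 in the 11-day library, 1145 in scrib BskDN, 1324 in BskDN, 1522 in RasV12 scrib BskDN and 1656 CPM in the wing discs. For the beta ring, the sum was 1649.5 CPM in control, 1429.5 in RasV12, 1191 in the 7-day library, 1192 in the 11-day library, 1165 in scrib BskDN, 1446 in BskDN, 1670.1 in RasV12 scrib BskDN and 1789 CPM in the wing discs. The base summed to 2697 CPM in control, 2427 in RasV12, 2327 in the 7-day library, 2115 in the 11-day library, 2534 in scrib BskDN, 2707 in BskDN, 2823 in RasV12 scrib BskDN and 2859 CPM in the wing discs. Both rings were thus low in scrib BskDN and in both tumour libraries, the alpha ring and the base were lowest in the 11-day tumour, and the base was not low in scrib BskDN. The lid, from 1433 CPM in the 11-day library to 2007 CPM in the wing discs, stood at 1906 CPM in control, 1633 CPM in the 7-day library and 1679 CPM in scrib BskDN. Within a library, the counts of the 13 ring genes over those of the 18 genes of base and lid gave a ratio of 0.683 in control (0.676 to 0.690), 0.664 in RasV12, 0.602 in the 7-day library, 0.645 in the 11-day library, 0.548 in scrib BskDN (0.543 to 0.554), 0.609 in BskDN, 0.663 in RasV12 scrib BskDN and 0.708 in the wing discs. This ratio needs no scaling between libraries. It was lowest in scrib BskDN. Without the 5 ring genes that varied most in these same libraries (Prosalpha5 and Prosbeta3 to Prosbeta6), the ratio was 0.421 in control, 0.386 in BskDN and 0.381 in scrib BskDN. They were chosen after seeing the data. Leaving out the genes that vary most narrows such a difference by the choice itself, so nothing is read from it. Ring genes have 815 to 1215 exon bases, and genes of the base 1404 to 3412, so the ratio also sets short against long genes.

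**Figure D3:**
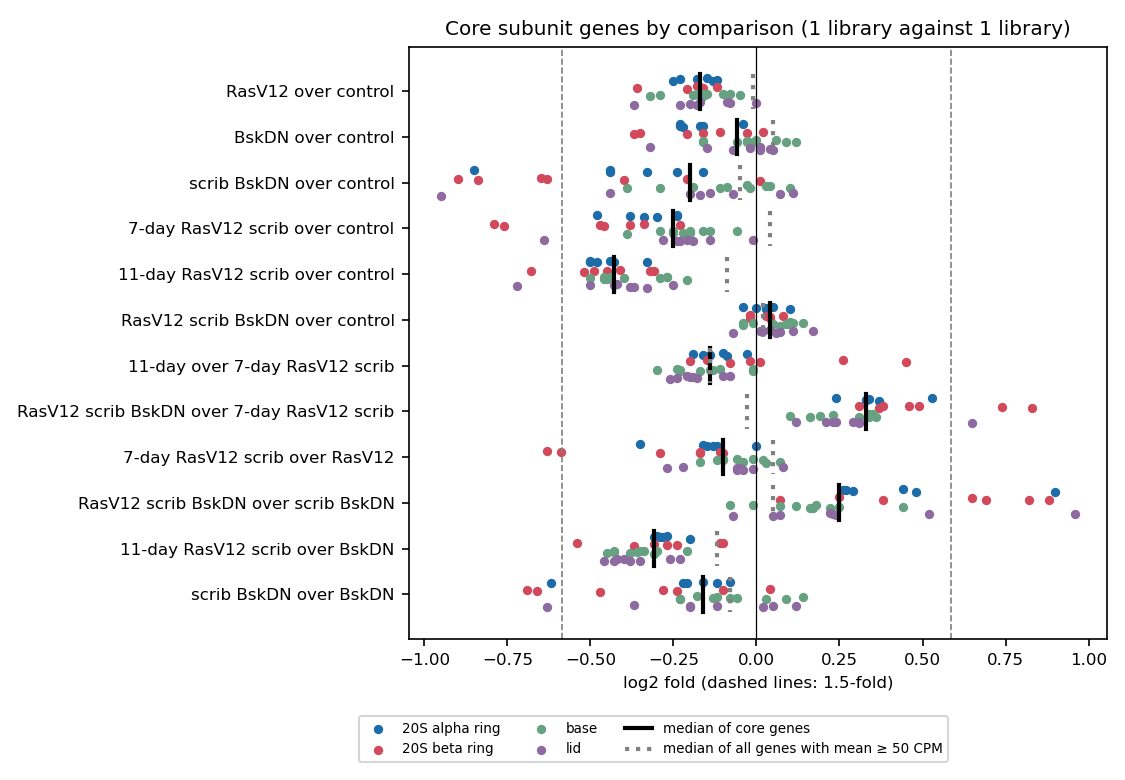
Log2 fold (horizontal axis) of each of the 31 core genes in 12 comparisons of 1 library with 1 library (vertical axis), coloured by part of the proteasome. Solid bars mark the median of the 31, dotted bars that of all genes with a mean of at least 50 CPM, and dashed lines 1.5-fold. All 31 points lie below 0 in both RasV12 scrib libraries over control and above 0 in RasV12 scrib BskDN over the 7-day RasV12 scrib library.

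Both tumour libraries had less core proteasome RNA than control, and the late library the least. In the 7-day RasV12 scrib library the 31 genes summed to 6345 CPM, against 7746 CPM in control, a fold of 0.819 (0.813 to 0.825). All 31 lay below control, where 50.0% of all genes did, and the median log2 fold was -0.25, against -0.00 over all genes. Of the 31, 11 were at least 20% lower, where 28.9% of all genes and 17.5% of those with a mean of at least 50 CPM were. The 3 genes at least 1.5-fold lower, where 20.6% of all genes and 9.64% of those with a mean of at least 50 CPM were, were Prosbeta3 (1.72-fold, 1.63 to 1.82), Prosbeta4 (1.70-fold, 1.61 to 1.79) and Rpn12 (1.56-fold, 1.49 to 1.64). The 3 of 31 are near the share of well expressed genes, and nothing is read from that count. In the 11-day library the sum was 5836 CPM, a fold of 0.753 (0.748 to 0.759). Again all 31 lay below control, with 54.8% of all genes, and the median was -0.43, against -0.06 over all genes. At least 20% lower were 24 of the 31, where 31.0% of all genes and 27.2% of those with a mean of at least 50 CPM were. All 6 alpha ring genes and 7 of 8 lid genes were among them. Only Rpn12 (1.65-fold, 1.57 to 1.73) and Prosbeta5 (1.60-fold, 1.54 to 1.66) were at least 1.5-fold lower, where 19.0% of all genes and 12.2% of those with a mean of at least 50 CPM were. Markers of other cells differed between these libraries too: the 6 neuron genes summed to 523 CPM in the 11-day library and 155 CPM in control, the 4 glia genes to 253 and 55.9 CPM, and the 7 eye disc genes to 388 and 1114 CPM. Their part in the lower core levels was not tested.

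These comparisons rest on the single control library, in which the muscle, cuticle and hemocyte markers had their highest sums. With the RasV12 library, also of 5 days, as reference, a choice made after seeing the data, the median was -0.10 for the 7-day library and -0.25 for the 11-day library. The summed core level of RasV12 was 6893 CPM, between control and both tumour libraries. The 7-day library over RasV12 had 27 of the 31 genes below 0, where 48.7% of all genes were. Prosbeta3 (1.54-fold, 1.46 to 1.63) and Prosbeta4 (1.5-fold, 1.43 to 1.58) were the 2 genes at least 1.5-fold lower, where 17.7% of all genes were. With Prosalpha5 they were the 3 at least 20% lower, where 25.7% of all genes were. The 11-day library and BskDN share their labelled age. Between them all 31 core genes were lower in the tumour, where 49.9% of all genes and 61.7% of those with a mean of at least 50 CPM were. The core median was -0.31, against -0.12 for genes with a mean of at least 50 CPM, and the summed fold was 0.797 (0.791 to 0.803). None was at least 1.5-fold lower, where 16.3% of all genes were. At least 20% lower were 15, where 26.8% of all genes and 29.2% of those with a mean of at least 50 CPM were. Of the 15, 13 were genes of the base or lid.

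The transgenes alone gave small differences. In RasV12 over control, 30 of the 31 core genes lay below 0, where 51.5% of all genes did, at a median of -0.17, and the sum was 0.890-fold (0.883 to 0.896). No core gene was at least 1.5-fold lower, where 14.6% of all genes were, and Rpn12 (1.30-fold) and Prosbeta5 (1.29-fold) were the 2 at least 20% lower, where 20.3% were. In BskDN over control, which also differ by 6 days, the median was -0.06, with 23 of the 31 below 0 and 51.7% of all genes. None was at least 1.5-fold lower, where 14.8% of all genes were. The 2 at least 20% lower, where 24.4% were, were Prosbeta5 (1.29-fold) and Prosbeta6 (1.27-fold), another beta subunit without a catalytic site. The fat body sum was highest in this library, while Lsp1alpha and Lsp1gamma were lower than in control, and its part was not tested.

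In scrib BskDN the difference from control was uneven. There 6 of the 31 core genes were at least 1.5-fold lower, where 22.8% of all genes and 13.0% of those with a mean of at least 50 CPM were, and the median was -0.20, against -0.09 over all genes. They were Rpn12 (1.94-fold, 1.84 to 2.04), Prosbeta4 (1.87-fold, 1.77 to 1.97), Prosalpha5 (1.80-fold, 1.72 to 1.90), Prosbeta5 (1.79-fold, 1.72 to 1.86), Prosbeta3 (1.57-fold, 1.49 to 1.65) and Prosbeta6 (1.54-fold, 1.48 to 1.61). The 6 of 31 lie between the shares of all and of well expressed genes, and nothing is read from that count. Other core genes were level or higher, such as Rpn8 at a log2 fold of 0.11 and Rpt4 at 0.10, and 25 of the 31 lay below 0, where 55.4% of all genes did. At least 20% lower were 12 of the 31, where 35.1% of all genes and 26.3% of those with a mean of at least 50 CPM were. That count, too, is near the share of all genes. The beta ring summed to 0.706-fold of control (0.695 to 0.718) and the base to 0.940-fold (0.928 to 0.951). Over BskDN, the library with the same transgene and no scrib allele, 4 core genes were at least 1.5-fold lower, where 15.5% of all genes were, namely Prosbeta4, Prosbeta3, Rpn12 and Prosalpha5, and with total counts 0 of these 4 passed. In that comparison 6 were at least 20% lower, where 27.9% of all genes were, and 24 lay below 0, where 53.4% did, at a median of -0.16. Both medians depend on the scaling: with total counts they were -0.03 over control and 0.02 over BskDN.

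RasV12 scrib BskDN, in which JNK was blocked in the tumour genotype, stood level with control and above the tumour. Over control the median was 0.04, with 22 of the 31 genes above 0, where 49.0% of all genes were, and the sum was 1.03-fold (1.03 to 1.04). No core gene was at least 25% higher, where 17.2% of all genes were, or 1.5-fold higher, where 11.7% were. Over the 7-day RasV12 scrib library all 31 genes were higher, where 48.8% of all genes were, at a median of 0.33 against -0.01, and the sum was 26.1% higher. At least 25% higher were 17, where 27.9% of all genes and 18.8% of those with a mean of at least 50 CPM were. The 3 genes at least 1.5-fold higher, where 19.5% of all genes and 9.98% of those with a mean of at least 50 CPM were, were Prosbeta3 (1.77-fold, 1.69 to 1.87), Prosbeta4 (1.67-fold, 1.59 to 1.76) and Rpn12 (1.57-fold, 1.5 to 1.65). That count of 3 in 31 is near the share of well expressed genes, and nothing is read from it. The core gene with the smallest fold was Rpt3, at 1.07-fold (1.03 to 1.12). These 2 libraries also differ in roX1, an RNA of the male dosage compensation complex, at 66.5 CPM in RasV12 scrib BskDN and 540.2 CPM in the 7-day library. It was at 57.7 to 119 CPM in all 3 libraries with UAS-Bsk[DN] and at 477 to 735 CPM in the other 5, and its part, or that of the share of males in a pool, was not tested. The median over the 4 core genes on X was 0.34 and over the 27 on autosomes 0.33.

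Adding UAS-Ras[V12] to scrib BskDN went with higher core levels, by an amount that depended on the scaling and on gene length. In RasV12 scrib BskDN over scrib BskDN, both of 6 days, 28 of the 31 genes were above 0, where 50.8% of all genes were, at a median of 0.25, and the sum was 1.23-fold (1.22 to 1.24). With total counts the median was 0.11, and set against genes of like length, as described below, it was 0.04. The 6 genes at least 1.5-fold higher, where 16.2% of all genes were, had the same names as those lower in scrib BskDN over control, which shares the scrib BskDN library. The 6 of 31 are near the share of all genes, and nothing is read from that count. Rpn12 was the first, at 1.95-fold (1.86 to 2.05), and 11 were at least 25% higher, where 28.7% of all genes were. Between the tumour ages the core changed as other well expressed genes did. In the 11-day over the 7-day library 28 of the 31 lay below 0, where 54.8% of all genes did. Their median of -0.14 was that of all genes with a mean of at least 50 CPM, also -0.14. None was at least 1.5-fold lower, where 8.58% of all genes were, or 20% lower, where 22.3% were, and Prosbeta4 was the 1 gene at least 25% higher, where 27.9% were.

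**Figure D4:**
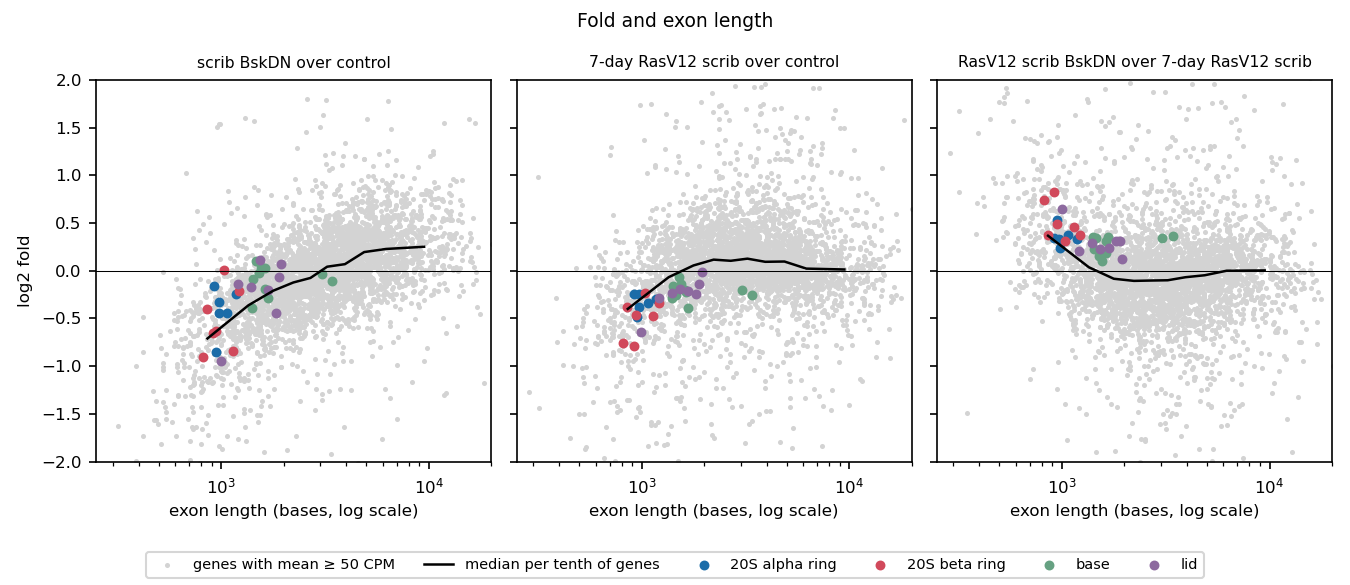
Log2 fold (vertical axis) against exon length in bases (horizontal axis, log scale) in 3 comparisons, for genes with a mean of at least 50 CPM (grey), their median in each of 10 bins of length (line) and the core genes (coloured by part). Of 3586 genes, 94, 117 and 135 lie outside the axes of the panels, none of them a core gene. In the first panel the core genes follow the line, and in the other panels most of them lie to 1 side of it.

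In these libraries folds moved with gene length, and the core genes differ in length. For scrib BskDN over control, the median log2 fold of genes with a mean of at least 50 CPM was -0.79 under 1000 exon bases, -0.41 from 1000 to 1500, -0.18 from 1500 to 2500 and 0.12 above 2500. The core medians in these classes were -0.63 (9 genes), -0.19 (10 genes), -0.05 (10 genes) and -0.07 (2 genes). When each fold was set against the median of all genes in its bin of 10 by length, an alternative chosen after seeing the data, the core median of that comparison was 0.08, and 0 of the 6 genes were still 1.5-fold lower. All 6 still lay below the bin median, Prosbeta5 by a log2 fold of -0.52, Rpn12 of -0.43, Prosbeta4 of -0.38 and Prosalpha5 of -0.33. Prosbeta3 (-0.13) and Prosbeta6 (-0.11) lay nearer to it. The size of this rest depends on the background, as the bins include weakly expressed genes. Rpn12 (-0.95), Prosbeta4 (-0.90) and Prosalpha5 (-0.85) lay closer to the -0.79 of genes under 1000 bases with a mean of at least 50 CPM. In scrib BskDN over control, the core median therefore cannot be told apart from a difference between short and long genes across the library, whose cause was not tested. The same centring left -0.22 for the 7-day and -0.24 for the 11-day library over control, 0.35 for RasV12 scrib BskDN over the 7-day library and -0.34 for the 11-day library over BskDN. In those 4 comparisons the core median kept its direction, but the genes at least 1.5-fold lower than control went from 3 to 0 in the 7-day library and from 2 to 0 in the 11-day library. For RasV12 scrib BskDN over scrib BskDN it left 0.04. In that comparison the medians of the core and of genes with a mean of at least 50 CPM were 0.65 and 0.66 under 1000 bases. They were 0.15 and 0.18 from 1500 to 2500 bases, and 0.20 (2 core genes) and -0.09 above 2500. The core median of RasV12 scrib BskDN over scrib BskDN therefore cannot be told apart from a difference between short and long genes either. From 1500 to 2500 bases the core holds 10 genes of base and lid. There RasV12 scrib BskDN over the 7-day library had a core median of 0.23. The median over genes with a mean of at least 50 CPM was -0.09. Under 1000 bases the 9 core genes, Prosbeta3, Prosbeta4 and Rpn12 among them, had a median of 0.49, close to 0.42 for such genes. For the 7-day library over control these medians were -0.46 and -0.48 under 1000 bases. From 1500 to 2500 bases they were -0.20 and 0.09.

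**Figure D5:**
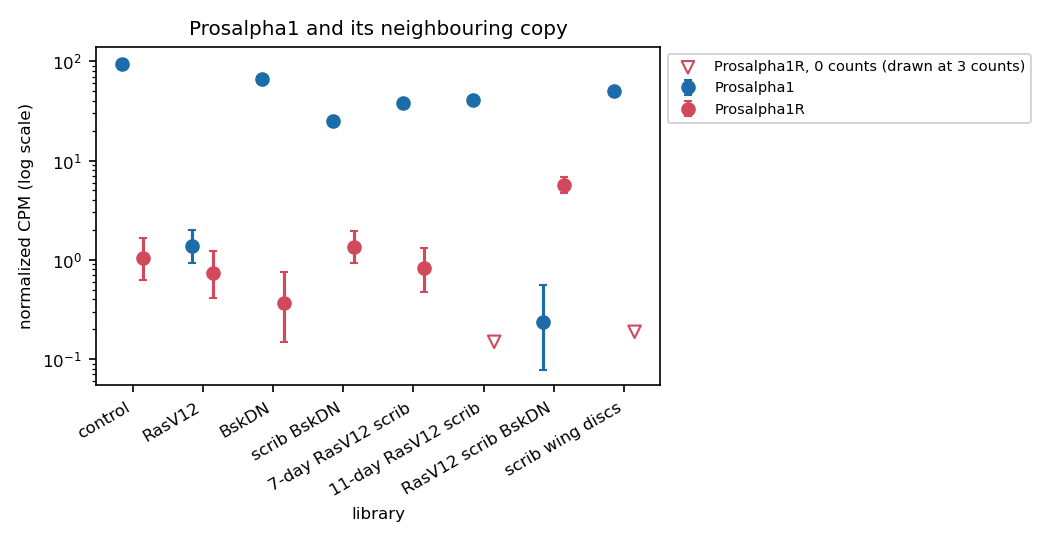
Normalized CPM (vertical axis, log scale) of Prosalpha1 and Prosalpha1R in each library (horizontal axis), with exact 95% counting intervals, and open triangles at the level of 3 counts where Prosalpha1R had 0. Prosalpha1 lies between 25.1 and 92.9 CPM in 6 libraries and at 1.39 and 0.238 CPM in RasV12 and RasV12 scrib BskDN.

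The remaining alpha subunit, Prosalpha1, behaved unlike all core genes. Its gene (FBgn0263121, 2R:7827303-7828678, minus strand) and that of Prosalpha1R (FBgn0050382, 2R:7830413-7831771, minus strand) lie 1734 bases apart. They have the same annotated layout, 3 coding segments of 76, 177 and 479 bases, 732 in all, parted by introns of 62 and 288 bases. Prosalpha1 was at 92.9 CPM in control (1680 counts), 1.39 in RasV12 (28 counts), 37.6 in the 7-day library (778 counts), 40.7 in the 11-day library (819 counts), 25.1 in scrib BskDN (553 counts), 66.3 in BskDN (1266 counts), 0.238 in RasV12 scrib BskDN (5 counts) and 50.6 CPM in the wing discs (809 counts). From control to RasV12 scrib BskDN that is 390.2-fold, where the widest range of a core gene was 1.95-fold. Libraries with UAS-Ras[V12] stood at both levels, as the 7-day and 11-day RasV12 scrib libraries were not low. Prosalpha1R was at 1.05 CPM in control, 0.743 in RasV12, 0.821 in the 7-day library, 1.36 in scrib BskDN, 0.367 in BskDN and 5.66 CPM in RasV12 scrib BskDN (119 counts). It had 0 counts in the 11-day library and the wing discs, which allows up to 0.149 and 0.188 CPM at 3 counts. Its highest level was thus in the library where Prosalpha1 was lowest, but the pair together reached 5.90 CPM there and 2.13 CPM in RasV12, far under the 26.5 to 93.9 CPM of the other libraries. Reads that align to several places were tallied apart from the genes and made up 14.8 to 27.8% of the reads tallied. Reads that fit both near copies may therefore be missing from both, and the levels do not give the amount of this subunit's RNA. Whether the stocks carry different alleles of the pair was not tested. Next to the pair, CG18853, whose exons overlap Prosalpha1R by 17 bases, ranged from 0 counts in RasV12, scrib BskDN and the wing discs to 26.4 CPM in the 7-day library. The gene phr, which overlaps Prosalpha1 by 17 bases, ranged from 39.9 to 111 CPM and was at 86.1 CPM in RasV12 and 71.1 CPM in RasV12 scrib BskDN.

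Copies of subunit genes that flies use in the testis were nearly silent in the discs. Of 14 such paralogs with an R or T in the symbol, 12 were under 1 CPM in every library, with at most 13 counts in any of them. Prosbeta2R2 reached the most among them, 0.591 CPM in scrib BskDN, and no count of Prosbeta4R1 or Prosbeta4R2 was seen. The testis markers were as low, with the 13 measured of 14 summing to 1.11 to 5.96 CPM and Mst84Da at 0 in every library. Rpt3R (FBgn0037742, 3R:9754735-9756510), the paralog of the ATPase gene Rpt3, was at 7.96 CPM in control, 5.05 in RasV12, 9.56 in the 7-day library, 7.75 in the 11-day library, 9.46 in scrib BskDN, 5.50 in BskDN, 9.47 in RasV12 scrib BskDN and 8.0 CPM in the wing discs. It stood at 9.46 to 9.56 CPM in 3 libraries with a scrib allele, and lowest in RasV12 and BskDN. The 11-day library and the wing discs, which also carry a scrib allele, were near the control level. Rpt6R (FBgn0039788, 3R:30582198-30583697), the paralog of Rpt6, was at 0.884 CPM in control, 1.98 in RasV12, 1.45 in the 7-day library, 1.84 in the 11-day library, 1.91 in scrib BskDN, 0.943 in BskDN, 0.952 in RasV12 scrib BskDN and 1.94 CPM in the wing discs. These rest on 16 to 42 counts. Per kilobase of exon, the mean of Rpt3R was 5.40 CPM against 158 CPM for Rpt3, and that of Rpt6R 1.03 CPM against 152 CPM for Rpt6.

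Genes that build or regulate the proteasome had list medians below 0 in every eye-antennal library over control but RasV12 scrib BskDN, where the median was 0.00. The median was -0.11 in both RasV12 and BskDN, and further below 0 in scrib BskDN and both tumour libraries. Of 9 assembly and regulator genes measured, 4 were at least 1.5-fold lower in scrib BskDN than in control, where 22.8% of all genes were, at a list median of -0.39. They were CG11885 (2.02-fold, 1.72 to 2.38), CG12321 (1.79-fold, 1.63 to 1.98), PI31, a proteasome-binding regulator (1.73-fold, 1.62 to 1.85), and REG, the fly form of an activator that caps the core particle (1.53-fold, 1.47 to 1.59). In the 7-day tumour over control 1 of the 9, CG12321, was at least 1.5-fold lower (1.90-fold, 1.72 to 2.10), where 20.6% of all genes were, with a median of -0.40. In the 11-day tumour there were 2, Uch-L5, the deubiquitinase that docks on Rpn13 (1.64-fold, 1.56 to 1.73), and CG12321 (1.60-fold, 1.46 to 1.77), where 19.0% of all genes were, with a median of -0.28. Both tumour counts are at or near the background share. Not every member was below control: REG was higher in the 7-day tumour (346 against 311 CPM). In the 11-day tumour PI31 (139 against 113 CPM) and CG11885 (24.1 against 22.3 CPM) were higher. All other members of the list were lower in each tumour library. The median of the list in RasV12 scrib BskDN over the 7-day library was 0.35, with CG12321 at least 1.5-fold higher, where 19.5% of all genes were. The 5 genes of ubiquitin supply had medians from -0.03 to 0.07 in these comparisons, over members that went both ways. In scrib BskDN against control, the polyubiquitin genes Ubi-p63E (363 against 264 CPM) and Ubi-p5E (669.6 against 497 CPM) were higher. The ubiquitin fusions with a ribosomal protein, RpL40 (1144 against 1584 CPM) and RpS27A (1329 against 2288 CPM), were lower there, and RpS27A was the 1 member past 1.5-fold (1.72-fold, 1.70 to 1.75). Of 9 shuttle and p97 partner genes, Ufd1 was at least 1.5-fold lower in scrib BskDN over control (1.55-fold, 1.44 to 1.67), where 22.8% of all genes were. The ubiquitin ligase gene sip3 was so in the 11-day tumour over control (1.57-fold, 1.45 to 1.70), where 19.0% of all genes were.

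Several genes around CncC were highest where most proteasome genes were lowest. Of 9 genes of the CncC and Keap1 axis, 4 were at least 1.5-fold higher in the 11-day tumour than in control, where 20.8% of all genes were, and the list median was 0.48, against -0.43 for the core proteasome genes. Gclc, a subunit of the enzyme that starts glutathione synthesis, was at 32.6 CPM in control, 23.8 in RasV12, 48.2 in the 7-day library, 109.7 in the 11-day library, 49.7 in scrib BskDN, 24.3 in BskDN, 31.5 in RasV12 scrib BskDN and 46.8 CPM in the wing discs. It was 3.36-fold higher in the 11-day tumour than in control (3.07 to 3.69). The others were ref(2)P, the fly p62 that carries ubiquitinated cargo to autophagy (2.47-fold, 2.35 to 2.60), GstD1, a glutathione transferase (2.45-fold, 2.41 to 2.50), and Trxr1, a thioredoxin reductase (1.63-fold, 1.58 to 1.68). Of the remaining list genes, maf-S was lower in the 11-day tumour than in control (43.1 against 47.5 CPM) and Keap1 near level (20.8 against 19.2 CPM). Gclm and crc were higher by less than 1.5-fold. The transcript of cnc itself was at 222 CPM in control and 309 CPM in the 11-day tumour. High levels of these genes did not always go with low core levels. In the wing discs, where the core genes had their highest sum (8312 CPM), cnc was at 306 CPM. There GstD1 was at 1684 CPM against 878 CPM in control, and Trxr1 at 499.9 against 380.4 CPM. The list genes maf-S, Keap1 and Gclm were lower there than in control. Over BskDN, of the same labelled age, 5 of the 9 were at least 1.5-fold higher, where 24.9% of all genes were, and over the 7-day tumour 3 were, where 21.1% were. In the 7-day tumour over control none of the 9 was at least 1.5-fold higher, where 12.6% of all genes were, and the median was 0.18.

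Chaperone and ribosomal protein genes gave other patterns. In scrib BskDN, 6 of the 13 chaperone genes with 1 CPM or more stood at least 1.5-fold above control, where 18.8% of all genes did, at a median of 0.58. Hsp68, an inducible Hsp70 relative, was at 57.2 CPM in control, 111 in RasV12, 16.9 in the 7-day library, 306 in the 11-day library, 1272 in scrib BskDN, 265 in BskDN, 171 in RasV12 scrib BskDN and 140.4 CPM in the wing discs. It was thus highest in scrib BskDN and lowest in the 7-day tumour. There 5 of the 13 chaperone genes, led by Hsp23, were at least 1.5-fold lower than in control, where 20.6% of all genes were. Of 82 cytosolic ribosomal protein genes, 46 were at least 1.5-fold lower in scrib BskDN than in control, where 22.8% of all genes were. Their median was -0.78. Genes under 1000 exon bases with a mean of at least 50 CPM had a median of -0.79 in that comparison. The part of gene length in the ribosomal protein folds was not tested. In the 7-day tumour 28 were lower, where 20.6% of all genes were, at a median of -0.19. In the 11-day tumour 1 was, where 19.0% of all genes were, at a median of -0.12. In the 11-day tumour, where the core proteasome genes were lowest, the ribosomal protein genes were therefore close to all genes, whose median was -0.06.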

How the data were processed

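RNA from pooled imaginal discs was sequenced in 8 libraries, 1 per group, and the authors deposited 1 table of raw read counts per gene. Per the submitters' processing notes, TopHat2 and HTSeq made these counts. The versions, genome build and strand setting were not given in the sources used here. Left out were 5 tally lines that name no gene: per library, reads without a feature were 3.41 to 7.33%, ambiguous reads 1.46 to 1.83% and reads not uniquely aligned 14.8 to 27.8% of all reads tallied. No column went unused. Of 15348 FlyBase IDs, 14639 had a symbol in the Ensembl 115 annotation of BDGP6, which also gave exon lengths and positions.

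Library totals were scaled with TMM factors (edgeR 4.0.16 in R 4.3.3), and 10032 genes with at least 1 CPM in any library entered each comparison. Folds of members are ratios of normalized CPM with an exact conditional binomial 95% interval, levels carry an exact Poisson 95% interval, and a count of 0 was bounded at 3 counts. Log2 folds, medians and shares of genes used a prior count of 2. Other tools were Python 3.11.15, pandas 2.3.3, scipy 1.17.1, matplotlib 3.10.9 and DESeq2 1.42.0 (size factors only). The code was tested on simulated data with 200 changed genes. Reads carry no molecular identifiers, so intervals cover counting error only, and with 1 library per group no difference between conditions could be tested.

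The members, gene lists and comparisons were chosen with earlier results of these data known. Named in full are the catalytic beta subunits, the 3 core genes with the largest and the 3 with the smallest range over the eye-antennal libraries, the pair and the paralogs above 1 CPM; others are named where they passed a fold or a count was small. Listed genes without a match in the table were Sem1, TER94, Hsc70-4, PPO1, Mhc, wupA, vas and ap. Neuron and glia markers summed to 83.9 to 523 CPM and 55.9 to 253 CPM per library. The comparison of scrib BskDN with BskDN, length centring, the RasV12 reference, leaving out the 5 most variable members and adding the pair as a member were added after seeing the data. Sequences of the genes were not used here.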

Additional observations from a re-analysis of the deposited data

Results flagged for a closer look

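Core medians had opposite signs for the JNK block in 2 backgrounds: the median log2 fold was -0.06 in BskDN over control and 0.33 in RasV12 scrib BskDN over the 7-day RasV12 scrib library, and 23 of the 31 core genes had opposite signs, where 38.1% of all genes did. The sign of the first median depends on the processing: it was 0.00 without the filter on low counts, 0.03 with length centring, where the second was 0.35, and 0.09 with RasV12 as reference. For RasV12 the signs were opposite too, with -0.17 in RasV12 over control and 0.25 in RasV12 scrib BskDN over scrib BskDN, and 27 of 31 opposite, where 49.4% of all genes did. With length centring these medians were -0.16 and 0.04. The libraries within each pair of comparisons are distinct, but ages differ, there is 1 library per group, and neither difference between the comparisons was tested.

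The scrib wing discs entered no comparison. In them, 26 of the 31 core genes lay above the control eye-antennal level, where 47.7% of all genes did, and 2 of the 35 members lay at least 25% above it with a counting interval above equality, where 14.9% of all genes did. Prosbeta6 was at 320.0 CPM against 255 CPM, and Rpt6R at 1.94 CPM against 0.884 CPM, on 16 counts in control. The tissue, the genotype and the age all differ, and their parts cannot be told apart.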

How the results depend on the processing

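Of 172 recomputed values for 35 results, 81 stayed within counting error and 91 did not. Core medians below are log2 folds.

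Total assigned counts gave -0.12 for RasV12, -0.07 for BskDN, -0.03 for scrib BskDN, -0.21 for 7-day RasV12 scrib, -0.38 for 11-day RasV12 scrib and 0.07 for RasV12 scrib BskDN over control. They gave 0.32 for RasV12 scrib BskDN over the 7-day library and 0.11 over scrib BskDN, -0.24 for the 11-day library over BskDN, and 0.02 for scrib BskDN over BskDN, which turned direction and left 0 of 4 genes past 1.5-fold. DESeq2 size factors gave -0.03, -0.13 and -0.39 for BskDN, scrib BskDN and the 11-day library over control. They gave -0.11 for 11 over 7 days, 0.19 for RasV12 scrib BskDN over scrib BskDN, -0.29 and -0.11 for the 11-day library and scrib BskDN over BskDN, and 1 in place of 2 genes for the 7-day library over RasV12. Without the filter on low counts, the scaling gave -0.12, 0.00, -0.10, -0.23, -0.38 and 0.11 over control, in the order above. It gave -0.12 for 11 over 7 days, 0.38 for RasV12 scrib BskDN over the 7-day library, -0.13 for the 7-day library over RasV12, 0.21 for RasV12 scrib BskDN over scrib BskDN and -0.11 for scrib BskDN over BskDN. A prior count of 0.5 moved no median past the range given above.

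The next 4 choices were made after seeing the data. Adding the Prosalpha1 pair as 1 member moved the 11-day library over BskDN to -0.32 and no other median past the range given above. Length centring gave -0.16, 0.03, 0.08, -0.22, -0.24 and 0.09 over control, in the same order. It gave -0.03 for 11 over 7 days, 0.35 for RasV12 scrib BskDN over the 7-day library, -0.09 for the 7-day library over RasV12, 0.04 for RasV12 scrib BskDN over scrib BskDN, -0.34 for the 11-day library over BskDN and 0.04 for scrib BskDN over BskDN. It turned 3 medians, those of BskDN and scrib BskDN over control and scrib BskDN over BskDN. It left 1 of 6 genes past 1.5-fold in RasV12 scrib BskDN over scrib BskDN and 0 in scrib BskDN, 7-day and 11-day over control, the 7-day library over RasV12 and scrib BskDN over BskDN. Without the 5 most variable members, medians were -0.04, -0.16 and -0.24 for BskDN, scrib BskDN and the 7-day library over control, 0.31 for RasV12 scrib BskDN over the 7-day library, -0.08 for the 7-day library over RasV12, 0.23 for RasV12 scrib BskDN over scrib BskDN, and -0.32 and -0.12 for the 11-day library and scrib BskDN over BskDN. With RasV12 in place of control, medians were 0.09 for BskDN, which turned direction, -0.04 for scrib BskDN, -0.10 and -0.25 for the 7-day and 11-day libraries and 0.21 for RasV12 scrib BskDN.

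At 25% (or 20% downward) the genes past the threshold were 2, 2, 12, 11 and 24 for RasV12, BskDN, scrib BskDN, 7-day and 11-day over control, 1 for 11 over 7 days, 17 and 11 for RasV12 scrib BskDN over the 7-day library and over scrib BskDN, and 15 for the 11-day library over BskDN. At 2-fold there were 0 in every comparison that had any at 1.5-fold. The highest summed level over the lowest was 1.39 with total counts and 1.47 with DESeq2 size factors for the alpha ring (1.51 as reported), 1.39 and 1.49 for the beta ring (1.54), 1.31 and 1.31 for the base (1.35), and 1.37 and 1.36 for the lid (1.4). The median spread of the core genes was 0.161 with total counts, 0.176 without the wing discs and 0.191 without control. Over all comparisons, 5 in place of 3 ubiquitin supply values and 2 in place of 4 of the shuttle list passed 1.5-fold with total counts. No paired analysis was possible because each group had 1 library. The causes of these movements were not tested, and at 2284 counts or more per core gene, depth limited the paralogs and the Prosalpha1 pair more than the core.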
